A study of Bos taurus with 11 samples.

Results

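The nuclear-encoded subunits of the mitochondrial respiratory chain were examined in the endometrium, the inner lining of the uterus, of subfertile and fertile cows. Members were the non-control probes whose gene name on the array begins as a complex I subunit (NDUFA, NDUFB, NDUFC, NDUFS or NDUFV and a digit), is SDHA, SDHB, SDHC or SDHD, or begins with UQCR, COX4 to COX8 or ATP5. This gave 83 of 25325 gene names on the array, read by 203 of 43653 probes, of which 79 probes belonged to complex I, 10 to complex II, 21 to complex III, 46 to complex IV and 47 to complex V. Biopsies were taken on day 7 of the oestrous cycle, with 1 Agilent 1-colour array for each cow. The 5 subfertile cows had failed to conceive at 3 successive embryo transfers or inseminations although genital tract and cycles appeared normal. The 6 fertile cows had conceived within 3 attempts before the biopsy and again at the first transfer after it. No breed, age or treatment is given in the labels. A biopsy holds several cell types, so fewer cells of a type and less RNA per cell cannot be told apart.

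The respiratory chain sits in the inner mitochondrial membrane. Complexes I and II pass electrons from NADH and succinate to coenzyme Q, complex III passes them to cytochrome c, and complex IV passes them to oxygen. Complexes I, III and IV pump protons, and complex V (ATP synthase) uses the gradient to make ATP. Most subunits are nuclear genes, but some core subunits of complexes I, III, IV and V are encoded by mitochondrial DNA, so the assembled complexes draw on both genomes. Several complex IV subunits exist as isoforms used in heart and skeletal muscle, testis or low oxygen. Matching by name also brought in COX4NB, now EMC8, a subunit of a membrane protein complex of the endoplasmic reticulum, and ATP5S, now DMAC2L, neither of which is a subunit of the chain. NDUFA4 is counted with complex I by its name, although it is now regarded as a subunit of complex IV.

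Some genes are read by probes whose sequences bear on the results, and stretches of these probes are shown 5′ to 3′ as the scanner files give them, with positions on Btau_3.1, the build named in the file headers. The gene structure at these positions was not used here, so exon, intron or UTR is not stated. The overlapping UQCRB probes 1 (chr14:66195074-66195133) and 2 (chr14:66195038-66195097) share 24 bases, and capitals mark the base that differs, A39G counted from the 5′ end of probe 2:

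UQCRB probe 2: ctAtggatacagctgttctcaagt
UQCRB probe 1: ctGtggatacagctgttctcaagt

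UQCRB probe 3 was designed on an expressed sequence tag, and its coordinates (chr14:66190538-66190597) run in descending order where those of probes 1 and 2 ascend. Its first 30 bases are given without capitals:

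UQCRB probe 3: ctaaccctaaccccttcctggggctttatt

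ATP5G2 probes 1 (chr5:29327273-29327332) and 3 (chr5:29327301-29327360) overlap by 32 bases with differences A43G and G54A, counted from the 5′ end of probe 1, marked in capitals:

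ATP5G2 probe 1: aaagtAgttggctcagGgcttga
ATP5G2 probe 3: aaagtGgttggctcagAgcttga

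For COX7B, probe 4 is the exact reverse complement of probe 1 over all 60 bases (chr17:61163736-61163795). Capitals mark stretches of 30 bases that are each other's reverse complement:

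COX7B probe 1: GGAATGGAGAGAACAGTAATCATCCCAGCT
COX7B probe 4: AGCTGGGATGATTACTGTTCTCTCCATTCC

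Probes with a reverse-complement match of at least 30 bases to another probe of the same gene numbered 16 on the whole array, and 4 of them were the COX7B probes.

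Values are log2 processed signals minus the 75th percentile of each array, and differences are subfertile minus fertile on this log2 scale, with n = 5 subfertile and n = 6 fertile cows. A probe was tested with limma when the scanner software flagged it well above background on at least 5 of the 11 arrays, and was called at a Benjamini-Hochberg adjusted p under 0.05 over all 31877 probes tested. Subfertile arrays were dimmer: the median processed signal lay between 54.3 and 92.7 on subfertile arrays and between 161 and 452 on fertile arrays. No slide and no scan day held both groups, with subfertile arrays on 3 slides scanned on 1 day and fertile arrays with a known slide on 3 slides scanned on 3 days, so no difference could be measured within a slide or day. Fertile cow 6 has no recorded slide or day. Slide and day were entered as random blocks instead, with fertile cow 6 given a block of its own. Each sample is labelled as its own cow, numbered within its group, and the cows were treated as separate animals.

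The chain was well expressed in both groups. Of the 203 member probes 192 were tested, 185 were well above background on all 11 arrays, and each of the 83 genes had a tested probe. All 174 probes with a RefSeq transcript accession were tested, whereas 11 of 29 with another accession (such as an expressed sequence tag) were not, and 9 of those 11 were above background on no array. Over the whole array 80.3% of probes with a RefSeq accession and 63.0% of those with another accession were tested. Members were bright probes: 58.3% of those tested fell among the brightest 10% of all tested probes.

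Few subunits differed between the groups with this scaling. Among the 192 tested member probes 16 were higher and 6 lower in subfertile cows, 11.5% in all, against 22.2% called over all probes tested (14.8% higher and 7.38% lower). The median difference of the members was 0.04, against 0.07 over all tested probes, and single members ranged between -0.81 and 1.35. By complex, 3 probes were higher and 1 lower of 74 in complex I, 0 and 1 of 10 in complex II, 5 and 2 of 21 in complex III, 3 and 2 of 41 in complex IV, and 5 and 0 of 46 in complex V. Median differences were 0.04 in complex I, -0.02 in complex II, -0.03 in complex III, 0.04 in complex IV and 0.07 in complex V. The ranges of the groups did not overlap for 9 members higher (4.69%) and 4 members lower (2.08%), against 9.65% and 3.90% of all tested probes. The 75th percentile taken over all non-control spots, outlier-flagged spots included, gave 16 higher and 9 lower members. The 3 added probes, of UQCRFS1, SDHD and NDUFS1, had limma adjusted p of 0.0505, 0.0513 and 0.0518 in the version reported here, and this version was chosen after the counts of the other were seen.

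With quantile normalization the same comparison leaned the other way. There 6 member probes were higher and 30 lower, 18.8% in all, against 20.0% over all probes tested (10.2% higher and 9.87% lower), and the median difference of the members was -0.13 against -0.01 for all probes. Every complex had a median below 0, at -0.06 in complex I, -0.21 in complex II, -0.18 in complex III, -0.14 in complex IV and -0.13 in complex V. In all, 48 of the 192 probes had a difference above 0 with the 75th percentile and below 0 with quantile normalization. Over the brightest 10% of all tested probes the median difference was 0.20 with the 75th percentile and -0.01 with quantile normalization, and for the 112 members among them it was 0.06 and -0.14. The probes called in the same direction with both scalings numbered 12, of which 6 were higher and 6 lower, and none was called in opposite directions. The share of all tested probes called with both scalings was not computed, so these counts have no comparison. Group ranges did not overlap for 4 members higher (2.08%) and 19 members lower (9.90%), against 6.61% and 5.73% of all tested probes.

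**Figure D1:**
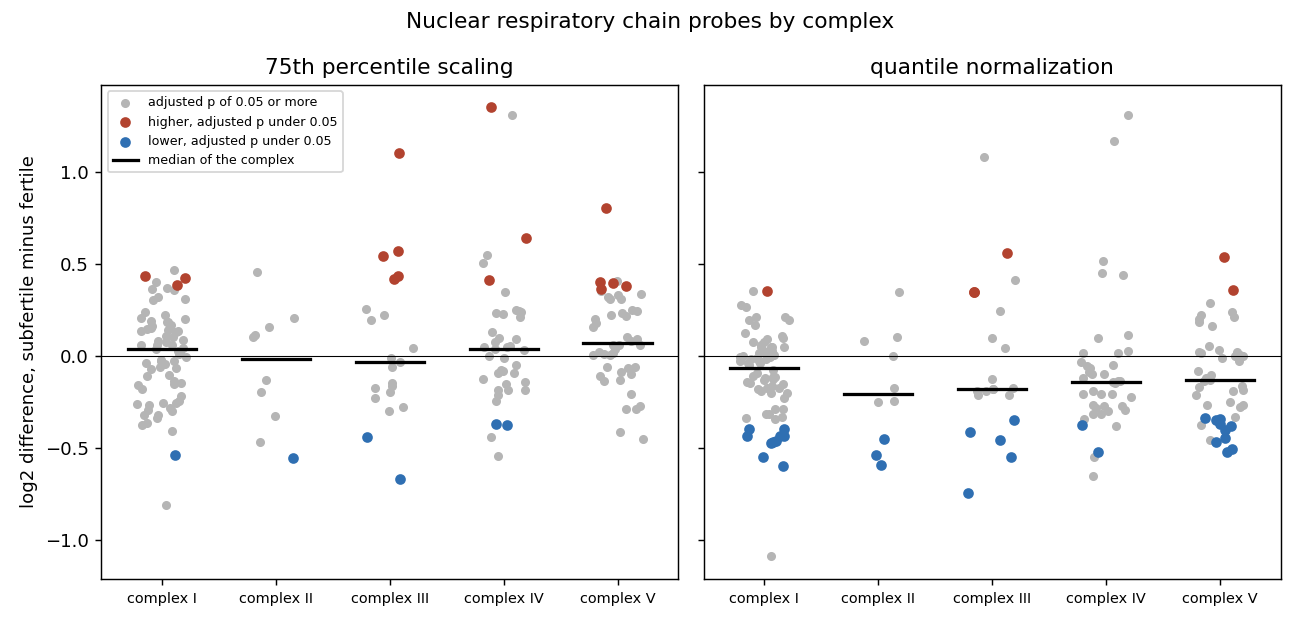
Log2 difference (subfertile minus fertile, vertical axis) of the 192 tested member probes by complex, with the 75th percentile (left) and quantile normalization (right). Points are probes, coloured where the limma adjusted p is under 0.05, and lines are medians; 16 higher and 6 lower probes on the left stand against 6 higher and 30 lower on the right.

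**Figure D2:**
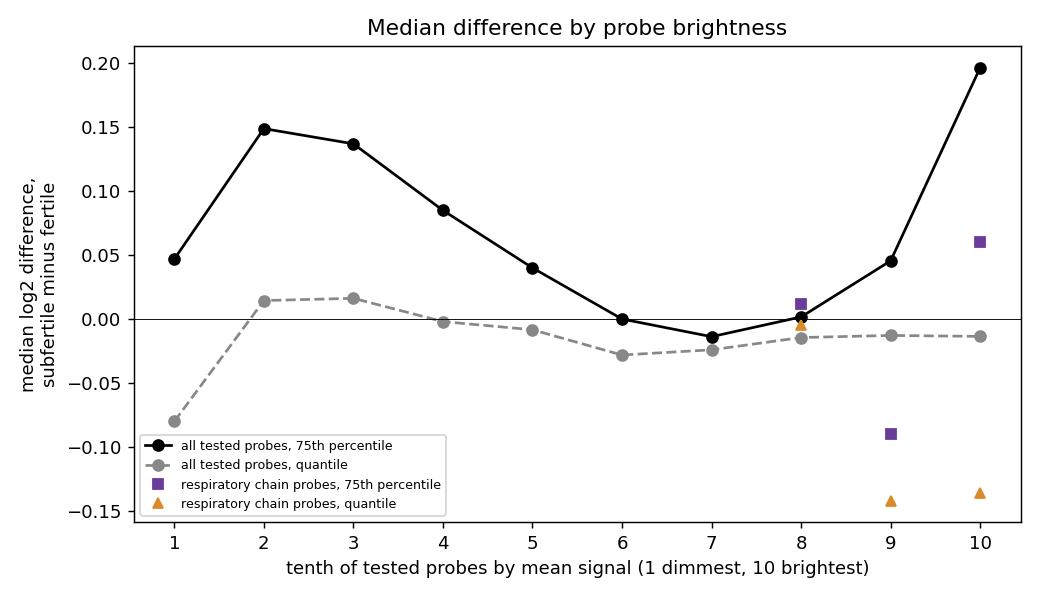
Median log2 difference (subfertile minus fertile) in each of 10 equal bins of tested probes by mean signal, for all probes (lines) and for members (symbols, the 3 brightest bins). In the brightest bin, which holds 112 members, the median of all probes is 0.20 with the 75th percentile and -0.01 with quantile normalization.

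Under other settings the members' counts are given beside the share of all probes called. With slide as a random block 4 members were higher and 4 lower, against 11.5% of all probes (8.52% higher and 3.00% lower), and with scan day as a block 0 and 1, against 3.06% (2.47% and 0.599%). The 8 that passed under the slide block were NDUFC1, SDHD, UQCRB probes 1 and 2, UQCRC1 probes 1 and 3, ATP5C1 and ATP5G2 probe 3. The other 14 members called without a block had limma adjusted p between 0.0501 (NDUFA10) and 0.130 (UQCRB probe 3) there. Median centring gave 4 higher and 20 lower members against 20.7% (9.84% and 10.8%), and removing the trend of differences with brightness gave 6 and 41 against 20.2% (10.6% and 9.62%). Normexp background correction gave 29 and 24 against 53.7% (46.9% and 6.78%). A trended robust variance gave 24 and 11 against 22.6% (14.9% and 7.63%), array weights 20 and 17 against 26.0% (16.5% and 9.50%), and testing only probes well above background on all 11 arrays 21 and 11 against 25.3% (17.1% and 8.18%). Testing without a filter on dim signal gave 19 and 6 against 27.9% (22.1% and 5.81%). Cow number as a fixed term gave 8 and 3 against 14.9% (9.53% and 5.41%). In that fit fertile cow 6, which has no subfertile cow of its number, did not enter the difference.

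Cow by cow, the groups overlapped in every complex, though only narrowly in complex V with quantile normalization. For each complex the profile of a cow was the median, over its tested probes, of the deviation from the probe's mean over the 11 cows. With the 75th percentile the profile of complex V lay between -0.02 and 0.15 in subfertile cows and between -0.19 and 0.07 in fertile cows, and complex IV lay between -0.06 and 0.20 in subfertile cows and between -0.11 and 0.15 in fertile cows. Group ranges overlapped for each of the 5 complexes. Subfertile cow 5 had the highest profile of its group for complexes I, III, IV and V, and fertile cow 3 the lowest of its group for the same complexes. Complex II varied most among fertile cows, between -0.39 in cow 6 and 0.25 in cow 2. With quantile normalization the ranges also overlapped, at -0.122 to -0.0065 in subfertile cows and -0.0081 to 0.165 in fertile cows for complex V. That overlap came from subfertile cow 5 and fertile cow 3 alone. For all members together, subfertile cow 5 was at 0.005 and the other subfertile cows were at -0.040 or lower. The fertile cows lay between -0.013 and 0.136 there.

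**Figure D3:**
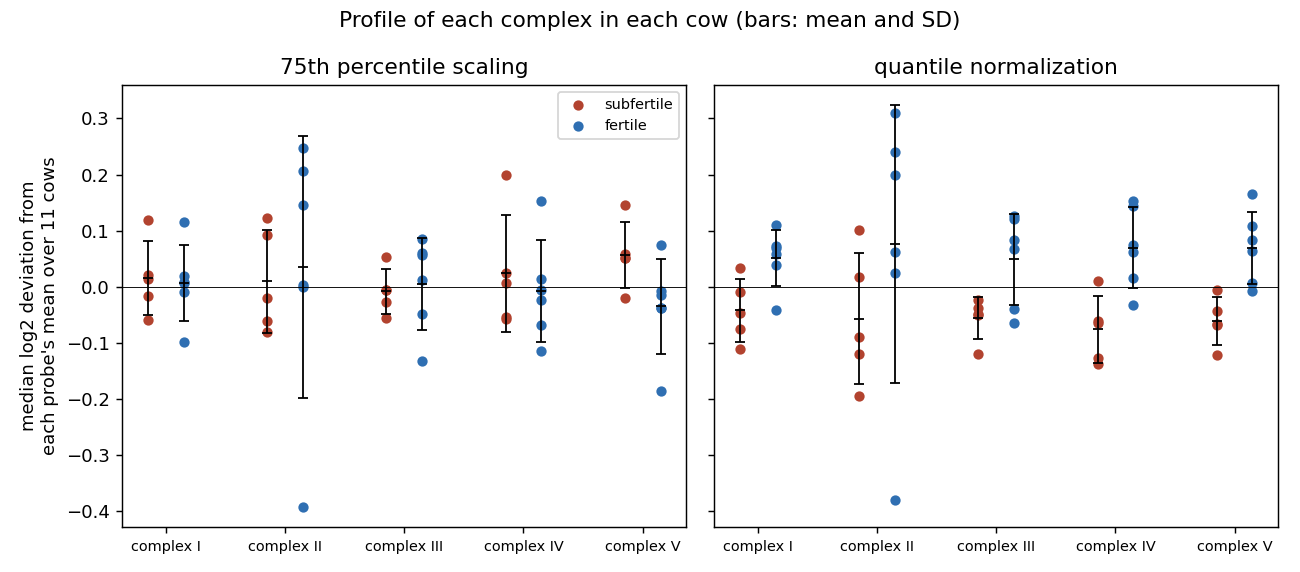
Profile of each complex in each cow (vertical axis: median log2 deviation from the mean of each probe over 11 cows) with both scalings, subfertile left of fertile, with the mean and SD of each group. The ranges of the groups overlap in every complex, between -0.02 and 0.15 in subfertile cows and -0.19 and 0.07 in fertile cows for complex V with the 75th percentile.

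In complex I, 1 probe each of NDUFA10, NDUFA13 and NDUFV2 was higher and 1 of NDUFC1 was lower. With slide as a block no higher call was left (limma adjusted p = 0.0501, 0.0506 and 0.115), while NDUFC1 passed (adjusted p = 0.0456). NDUFC1, a small accessory subunit of the membrane arm, had 1.65, 1.44, 1.73, 1.36 and 2.05 in the subfertile cows, against a lowest of 1.89, a median of 2.20 and a highest of 2.38 in the fertile cows. Its difference was -0.54 ± 0.14 (SE; limma adjusted p = 0.0192), and -0.60 with quantile normalization (limma adjusted p = 0.0114). The groups overlapped through subfertile cow 5, and without subfertile cow 2 the adjusted p was 0.0531. NDUFA10, an accessory subunit, had 1.25, 1.39, 1.45, 1.39 and 1.501 in the subfertile cows, against a lowest of 0.75, a median of 1.06 and a highest of 1.20 in the fertile cows, a difference of 0.38 ± 0.11 (SE; limma adjusted p = 0.0242). All subfertile cows lay above all fertile cows, but the call ended without subfertile cow 2, 3 or 5 (adjusted p of 0.0530, 0.0507 and 0.0583), and the other NDUFA10 probe was at 0.11 (adjusted p = 0.506).

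NDUFA13, an accessory subunit also known as GRIM-19, was higher by 0.43 ± 0.11 (SE; limma adjusted p = 0.015) on a bright probe, with subfertile cows at 5.75 to 6.10 and fertile cows at 5.27 to 5.63. The call depended on the scaling, since the difference was 0.02 with quantile normalization, and the other NDUFA13 probe was at -0.03. For NDUFV2, an iron-sulphur subunit of the NADH-oxidising module, probes differed by 0.42 (limma adjusted p = 0.0403, over 0.05 without any 1 cow except fertile cows 4 and 6) and -0.26 (adjusted p = 0.135). NDUFA2 (-0.38, adjusted p = 0.0531) and the largest subunit NDUFS1 (5 probes, between -0.41 and 0.16) did not pass with the 75th percentile. NDUFA2 was lower with quantile normalization, at -0.55 (limma adjusted p = 0.00624). NDUFA4L2, a paralog of NDUFA4 induced by low oxygen, was at 0.06 (adjusted p = 0.847), and the 4 NDUFA4 probes were between -0.10 and 0.35 with none called.

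Complex II also belongs to the tricarboxylic acid cycle. SDHD, which anchors the complex in the membrane, was lower on 1 of 2 probes, with 0.57, 0.92, 1.14, 1.18 and 0.89 in the subfertile cows, against a lowest of 1.29, a median of 1.51 and a highest of 1.82 in the fertile cows. All subfertile cows lay below all fertile cows, with a difference of -0.56 ± 0.14 (SE; limma adjusted p = 0.0151) and -0.59 with quantile normalization (limma adjusted p = 0.0157), and the call held without any 1 cow (adjusted p up to 0.0379). The other SDHD probe was at -0.33 ± 0.11 (SE; limma adjusted p = 0.0513), just over the threshold, and passed with quantile normalization at -0.45 (limma adjusted p = 0.0199). SDHC, the other membrane anchor, had 3 probes between -0.13 and 0.45, the flavoprotein SDHA 4 probes between -0.47 and 0.16, and the iron-sulphur subunit SDHB a probe at -0.20. None of these passed with the 75th percentile, while 1 SDHA probe was lower with quantile normalization, at -0.54 (limma adjusted p = 0.0313).

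Complex III had members called in both directions. UQCRB, a small subunit near the site that binds coenzyme Q, was lower on its 2 overlapping probes. UQCRB probe 1 had 1.99, 1.93, 1.89, 1.91 and 1.998 in the subfertile cows, against a lowest of 2.46, a median of 2.53 and a highest of 2.95 in the fertile cows. Every subfertile cow lay below every fertile cow. The difference was -0.67 ± 0.11 (SE; limma adjusted p = 0.00219), a 1.59-fold lower signal, and -0.75 with quantile normalization (limma adjusted p = 0.00245). It was the only member called with scan day as a random block (limma adjusted p = 0.0358), where 3.06% of all probes were called, and it passed with slide as a block (adjusted p = 0.00811) and without any 1 cow (adjusted p up to 0.0077).

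UQCRB probe 2, which shares 24 bases with probe 1, had 0.81, 0.73, 0.71, 0.89 and 0.92 in the subfertile cows, against a lowest of 1.11, a median of 1.27 and a highest of 1.34 in the fertile cows, again without overlap. Its difference was -0.44 ± 0.09 (SE; limma adjusted p = 0.00656), with an adjusted p of 0.0238 under the slide block and 0.0815 under the day block. UQCRB probe 3, on the descending coordinates, went the opposite way, with -0.34, -0.46, -1.001, -1.29 and -0.22 in the subfertile cows, against a lowest of -2.502, a median of -1.79 and a highest of -0.67 in the fertile cows. The groups overlapped there and the difference was 1.101 ± 0.35 (SE; limma adjusted p = 0.0411), over 0.05 without any 1 cow except subfertile cow 4 and fertile cows 5 and 6, and with quantile normalization at 1.08 (adjusted p = 0.0501). UQCRB was the only member gene with probes called in opposite directions with the 75th percentile. Whether probe 3 reads the same transcript as probes 1 and 2 was not tested.

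UQCRC1, a core subunit of complex III, was higher on all 4 of its probes with the 75th percentile. UQCRC1 probe 1 (chr22:52486619-52486678) had 4.31, 4.36, 4.29, 4.33 and 4.29 in the subfertile cows, against a lowest of 3.54, a median of 3.83 and a highest of 3.99 in the fertile cows. The subfertile cows lay close together and above every fertile cow. Its difference was 0.54 ± 0.10 (SE; limma adjusted p = 0.00433), and 0.35 with quantile normalization (limma adjusted p = 0.0358). The other probes differed by 0.42, 0.57 and 0.44 (limma adjusted p = 0.0207, 0.0154 and 0.0486), and by 0.35, 0.56 and 0.41 with quantile normalization, where probe 4 did not pass (adjusted p = 0.0547). Probe 2 was not called without subfertile cow 2 (adjusted p = 0.0548), and probe 4 only with all cows or without subfertile cow 5 or fertile cow 1. Probes 3 and 4 cover overlapping positions and are not independent. With slide as a block probes 1 and 3 passed (adjusted p = 0.0165 and 0.0469), and with scan day as a block none did (probe 1 adjusted p = 0.0626).

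The remaining named members of complex III did not pass with the 75th percentile. The Rieske iron-sulphur protein UQCRFS1 had 3 probes between -0.30 and 0.20, UQCRQ 2 probes at 0.22 and 0.25, UQCR11 2 probes at -0.23 and -0.06, and the hinge protein UQCRH 1 probe at -0.28. With quantile normalization UQCRH at -0.55 (limma adjusted p = 0.024), 1 UQCR11 probe at -0.35 (adjusted p = 0.0417) and 1 UQCRFS1 probe at -0.41 (adjusted p = 0.0187) were lower.

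**Figure D4:**
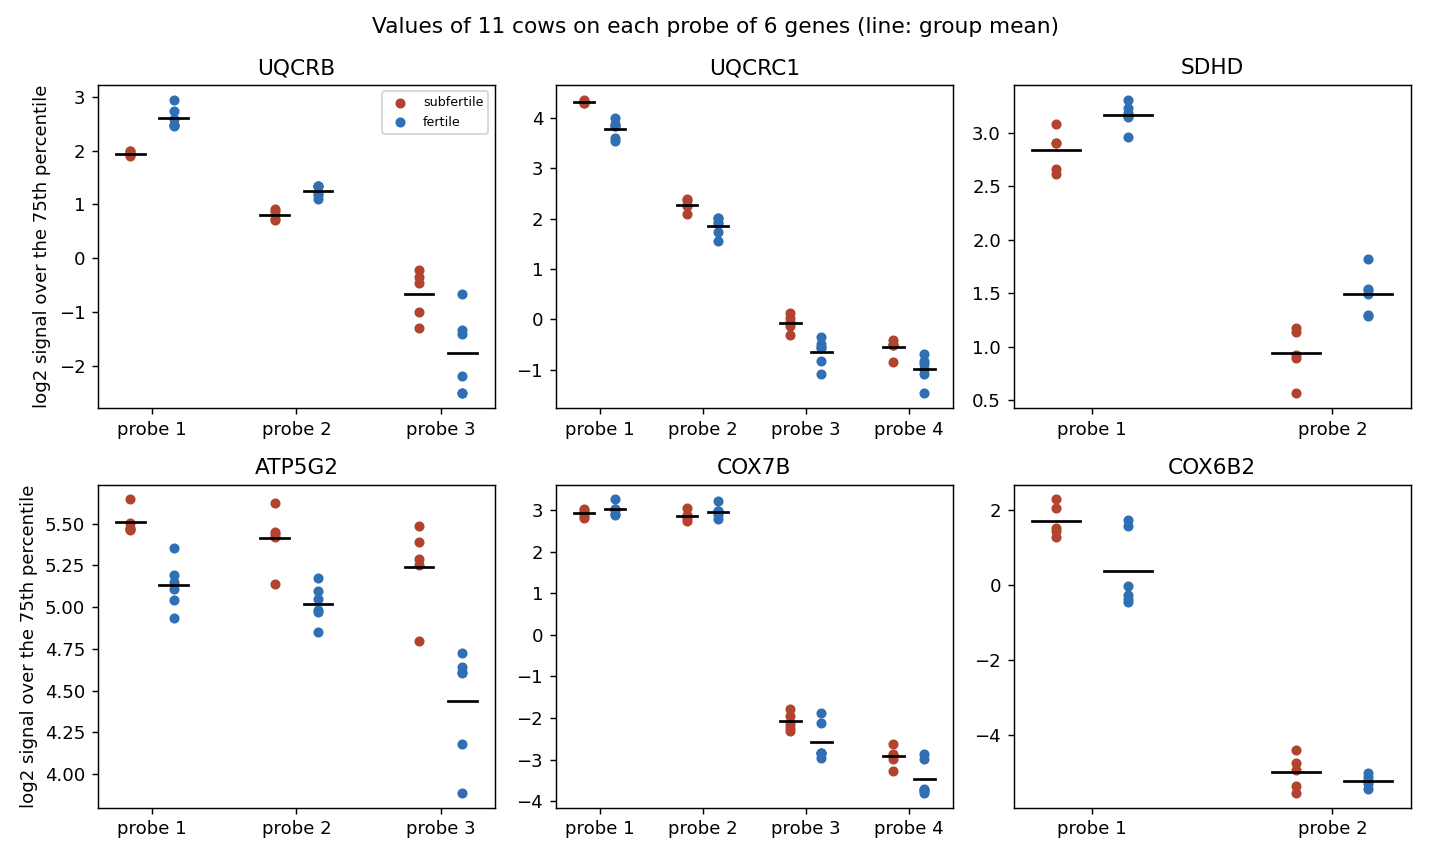
Log2 signal over the 75th percentile of each array (vertical axis) in 5 subfertile (left) and 6 fertile (right) cows, for each tested probe of 6 genes, with group means as lines. UQCRB probe 1 lies at 1.89 to 1.998 in subfertile cows and 2.46 to 2.95 in fertile cows, probe 3 shows the opposite order, and every UQCRC1 probe has the higher mean in subfertile cows.

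In complex IV, COX6B2, an isoform of testis in mammals, showed the largest difference among members called. It had 2.28, 1.52, 2.03, 1.28 and 1.44 in the subfertile cows, against a lowest of -0.45, a median of -0.15 and a highest of 1.72 in the fertile cows. The difference was 1.35 ± 0.43 (SE; limma adjusted p = 0.0437), but fertile cows 2 and 5, which shared a slide, stood with the subfertile cows, and the mean of that slide was 2.05 above that of the slide of fertile cows 1 and 3. The call ended without any 1 cow except subfertile cow 4 and fertile cows 2 and 5, and with quantile normalization (adjusted p = 0.055), and the other COX6B2 probe was at 0.23 (adjusted p = 0.415). The ubiquitous partner COX6B1 had 3 probes between 0.21 and 0.25, none of which passed.

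COX6A2, an isoform of heart and skeletal muscle, was higher by 0.64 ± 0.19 (SE; limma adjusted p = 0.0311) on a probe well above background in 3 of 5 subfertile and 6 of 6 fertile cows, a call that ended without subfertile cow 1 or 5 or fertile cow 1, 3, 4 or 6, and with quantile normalization (adjusted p = 0.0621). Its partner COX6A1 was at -0.05 (adjusted p = 0.768). COX4I1, the ubiquitous form of subunit 4, had 4 probes between -0.19 and 0.41, of which 1 was higher (limma adjusted p = 0.0253, 0.0556 and 0.0614 without subfertile cow 3 or 5), and the same probe was at -0.05 with quantile normalization. COX4I2, its low-oxygen form, was at -0.54 ± 0.35 (SE; limma adjusted p = 0.287).

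The muscle isoforms COX7A1 (2 tested probes at 0.13 and 0.05) and COX8B (-0.19 and -0.44) did not pass, nor did their partners COX7A2 (3 probes, -0.19 to 0.05) and COX8A (2 tested probes, at 0.08 and 0.0004). COX7A2L, which takes part in supercomplexes, was at 0.05 and -0.08, and COX5A at -0.25, also without passing. Of 5 tested COX5B probes 1 was lower, at -0.37 (limma adjusted p = 0.0261, over 0.05 without subfertile cow 1 or 2 or fertile cow 1, at 0.0561, 0.0663 and 0.0550), and the others were between -0.15 and -0.08. With quantile normalization the same probe was at -0.52 (limma adjusted p = 0.00629), and the 5 probes were between -0.52 and -0.29. COX5B was named after its values were seen.

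The COX7B probes fell into 2 pairs by the strand of their sequence. COX7B probes 1 and 2 differed by -0.09 and -0.09, while probes 3 and 4, each a reverse-complement match of both, differed by 0.50 and 0.55, with limma adjusted p between 0.0751 and 0.533, so none passed. COX7B probe 4 had -2.88, -2.85, -2.99, -3.26 and -2.61 in the subfertile cows, against a lowest of -3.80, a median of -3.71 and a highest of -2.85 in the fertile cows. Its fertile values spread widely, with the slide of fertile cows 2 and 5 at -0.80 on average relative to that of fertile cows 1 and 3. Which strand carries the COX7B transcript was not tested.

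Complex V had higher calls with the 75th percentile and lower calls with quantile normalization. ATP5G2 (now ATP5MC2), which encodes the subunit of the rotating c-ring, was higher on all 3 probes with the 75th percentile. ATP5G2 probe 3 had 5.39, 4.79, 5.29, 5.25 and 5.49 in the subfertile cows, against a lowest of 3.89, a median of 4.61 and a highest of 4.73 in the fertile cows. No fertile cow reached the lowest subfertile cow, and the difference was 0.80 ± 0.18 (SE; limma adjusted p = 0.00962) and 0.54 with quantile normalization (limma adjusted p = 0.0359). Probes 1 and 2 differed by 0.38 and 0.39 (limma adjusted p = 0.0172 and 0.0219, the second over 0.05 without subfertile cow 2 or 5, at 0.0503 and 0.0552), but by 0.03 and 0.05 with quantile normalization (adjusted p = 0.812 and 0.726). With slide as a block probe 3 passed (adjusted p = 0.0291).

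ATP5C1 (now ATP5F1C), the central stalk subunit gamma, was higher on 1 of 4 probes, at 0.40 ± 0.09 (SE; limma adjusted p = 0.00905), with 4.70, 4.73, 4.77, 4.82 and 4.95 in the subfertile cows, against a lowest of 4.25, a median of 4.41 and a highest of 4.48 in the fertile cows. The groups did not overlap, the call held without any 1 cow, and it was absent with quantile normalization (0.16, adjusted p = 0.194), while the other 3 probes were between -0.13 and 0.20. For ATP5D, the stalk subunit delta, 1 of 2 probes was higher at 0.36 (limma adjusted p = 0.0314, over 0.05 without subfertile cow 2, 3, 4 or 5 or fertile cow 1 or 3) and 0.36 with quantile normalization (adjusted p = 0.0335); ATP5D was named after its values were seen. ATP5A1, the catalytic-core subunit alpha, had 6 probes between -0.11 and 0.06, and ATP5E, subunit epsilon, 3 probes between -0.41 and -0.10, none called.

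With quantile normalization ATP5A1 was lower on 2 probes, at -0.50 and -0.45 (limma adjusted p = 0.0136 and 0.0248), and ATP5E on all 3, between -0.52 and -0.34 (adjusted p between 0.00748 and 0.0382). ATP5H probes lay between -0.21 and 0.32 and ATP5J2 probes between -0.29 and 0.31 with the 75th percentile, with none called and with both signs among the probes of each gene. With quantile normalization 1 probe of each was lower, at -0.37 for ATP5H and -0.38 for ATP5J2 (limma adjusted p = 0.0282 and 0.0211).

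Probes of a gene often disagreed in sign. Of 60 member genes with more than 1 tested probe, 17 had all differences above 0, 9 had all below 0 and 34 had both signs, with a median span of 0.30 between the lowest and the highest probe of a gene. How often this occurs for other genes on the array was not computed. UQCRC1 and ATP5G2 were the only member genes of which all tested probes were called in 1 direction with the 75th percentile. COX4NB, which is no subunit of the chain, accounts for 1 of the 6 lower calls (-0.37, limma adjusted p = 0.0316, over 0.05 without any 1 cow except subfertile cow 4 and fertile cows 1 and 6).

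The core subunits encoded by mitochondrial DNA lie outside the naming rule. With the 75th percentile, of 26 probes for 12 of the 13 genes, all tested, 19 were higher and 0 lower in subfertile cows, 25 had differences above 0 and the median was 0.65, where 14.8% of all probes were called higher. Fewer were called higher under other settings: 14 with slide as a block (8.52% of all probes), 6 with scan day as a block (2.47%) and 5 with quantile normalization (10.2%). Normexp gave 18 higher (46.9% of all probes), and removing the brightness trend gave 9 (10.6%). COX2, the complex IV subunit that receives electrons from cytochrome c, had 8.36, 8.69, 8.72, 8.31 and 8.84 in the subfertile cows, against a lowest of 7.08, a median of 7.17 and a highest of 7.47 in the fertile cows on its brightest probe (chrM:7954-8013, Btau_3.1). The groups did not overlap and the difference was 1.36 (limma adjusted p = 0.000122, and 0.00642 with scan day as a block). With quantile normalization it was 0.03 (adjusted p = 0.863), and the median of the 26 probes was 0.22. Quantile normalization gives probes of the same rank the same value on every array. This COX2 probe had the highest group means of the 26 there, at 18.28 in subfertile and 18.25 in fertile cows. The method leaves little room for a difference in a probe so bright, so the value near 0 cannot serve as a check. This COX2 probe was at 0.42 with the brightness trend removed (limma adjusted p = 0.0119) and at 1.25 with normexp (adjusted p = 4.22e-06). Of the other COX2 probes, 1 was at 0.44 with quantile normalization (limma adjusted p = 0.0285) and 1 at 0.08 (adjusted p = 0.444).

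The calls that held with both scalings included probes of lower signal. ND4L of complex I differed by 1.15 (limma adjusted p = 0.00183) and by 1.12 with quantile normalization (adjusted p = 0.0027), ND6 by 1.001 and 0.99 (adjusted p = 0.0385 and 0.0434), and a probe of CYTB, the catalytic core of complex III, by 1.09 and 1.05 (adjusted p = 0.00682 and 0.0102). With the blocks ND4L passed for slide and for scan day (adjusted p = 0.00901 and 0.0417), the CYTB probe for slide alone (0.0288 and 0.0841) and ND6 for neither (0.0956 and 0.207). Group ranges did not overlap for ND4L and overlapped for ND6 and this CYTB probe. Probes of a mitochondrial gene also disagreed, with COX1 at 0.11 on chrM:6489-6549 (limma adjusted p = 0.663) and 1.18 on chrM:7166-7225 (adjusted p = 7.96e-05). 

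**Figure D5:**
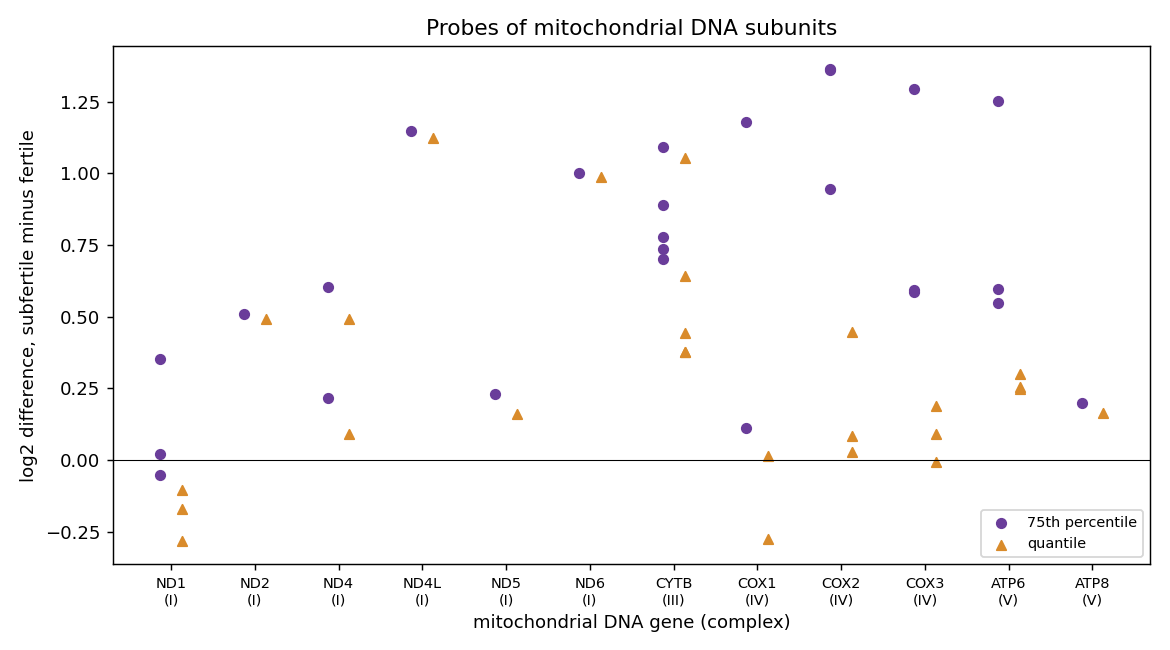
Log2 difference (subfertile minus fertile, vertical axis) of the 26 probes of 12 subunits encoded by mitochondrial DNA, by gene and complex, with the 75th percentile (circles) and quantile normalization (triangles). With the 75th percentile 25 of 26 are above 0. The COX2 probes near 1.36 are at 0.03 and 0.08 with quantile normalization, while ND4L is at 1.15 and 1.12. Quantile normalization limits the difference that the brightest probes can show.

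Genes that build or feed the chain are given by the brightest tested probe of each gene, over which 22.1% of 18505 genes were called (14.2% higher and 7.88% lower). With quantile normalization the share was 20.0% (9.67% higher and 10.3% lower), with slide as a block it was 11.4% (8.16% and 3.24%), and with scan day as a block 2.52% were higher and 0.578% lower. Assembly factors were called higher in 2 and lower in 1 of 14 genes for complex I, 0 and 0 of 4 for complex II, 0 and 1 of 5 for complex III, 1 and 3 of 14 for complex IV and 1 and 0 of 3 for complex V. Among them NDUFAF7, a methyltransferase of complex I assembly, was at -0.55 (limma adjusted p = 0.00595), FOXRED1, also of complex I assembly, at 0.72 (adjusted p = 0.00858), and COX15, of haem A synthesis, at -0.53 (adjusted p = 0.00634). COX19, a copper-related factor of complex IV, was at -0.42 (adjusted p = 0.0293), and TTC19 of complex III at -0.41 (adjusted p = 0.0352). All 5 kept their sign with quantile normalization, at -0.61, 0.64, -0.57, -0.51 and -0.45. There the assembly factors higher and lower numbered 1 and 1 for complex I, 0 and 2 for complex III and 0 and 3 for complex IV. None was called there for complexes II and V. Under the slide block NDUFAF7, FOXRED1 and COX15 passed (adjusted p = 0.0305, 0.0354 and 0.0209), COX19 and TTC19 did not (0.0612 and 0.132), and under the day block none of the 5 did (0.0827 to 0.240).

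Coenzyme Q synthesis had 0 genes higher and 2 lower of 9 tested, with a median of -0.20. PDSS2, which makes the side chain, was at -0.42 (limma adjusted p = 0.00722), and COQ2, which attaches it, at -0.66 (adjusted p = 0.00759). With quantile normalization 0 of the 9 coenzyme Q genes were higher and 4 lower, with a median of -0.22. Of the ADP and phosphate carriers 0 were higher and 1 lower of 4, namely SLC25A5 at -0.41 (adjusted p = 0.0382), an ADP/ATP exchanger. The tricarboxylic acid cycle had 1 higher and 0 lower of 16 (median 0.05), and 0 and 1 with quantile normalization, where its median was -0.12. Glycolysis had 3 and 1 of 16 (median 0.19), and 1 and 1 with quantile normalization, with a median of -0.07. The regulators of mitochondrial biogenesis had 0 and 1 of 14, and the mobile carriers and remaining subunits such as CYC1 (0.25, adjusted p = 0.0773) 0 and 0 of 9. IDH3B of the cycle was at 0.39 (adjusted p = 0.0475), PFKL of glycolysis at 0.54 (adjusted p = 0.00561), GPI at -0.46 (adjusted p = 0.0134) and POLG2, a subunit of the mitochondrial DNA polymerase, at -0.52 (adjusted p = 0.0324). ATPAF1, an assembly factor of complex V, was at 0.44 (adjusted p = 0.0487). ATPAF1 and IDH3B did not pass with quantile normalization (adjusted p = 0.0742 and 0.0803). Under the slide block PDSS2, COQ2, PFKL and GPI passed (adjusted p between 0.0174 and 0.0387), while SLC25A5, IDH3B, POLG2 and ATPAF1 did not (between 0.0574 and 0.126), and under the day block none of these 8 did (between 0.0750 and 0.259).

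Cell type markers are also given by the brightest probe of each gene, where 14.2% of all genes were higher and 7.88% lower. Their part in the results was not tested. Epithelial markers were higher in 6 and lower in 0 of 9 genes, but in 1 of 9 with quantile normalization, with slide as a block and with scan day as a block. They had summed signals relative to the 75th percentile of 103 to 142 in subfertile cows and 52.4 to 107 in fertile cows. Ciliated cell markers were higher in 3 and lower in 0 of 6 tested genes (3 with quantile normalization, 1 under the slide block and 0 under the day block), with sums of 6.03 to 24.2 in subfertile cows and 3.49 to 8.41 in fertile cows. Stromal markers were higher in 2 and lower in 2 of 10 (0 and 3 with quantile normalization), with sums of 339 to 511 in subfertile cows and 305 to 412 in fertile cows. Smooth muscle markers were higher in 2 and lower in 0 of 8, with sums of 86.9 to 393 in subfertile cows and 59.7 to 176 in fertile cows; the 393 is subfertile cow 1 alone, and the next highest subfertile cow was at 125. Endothelial markers were higher in 2 and lower in 0 of 6, with sums of 6.97 to 17.7 in subfertile cows and 5.17 to 9.82 in fertile cows. Striated muscle markers, which bear on the muscle isoforms, were called in 0 of 5, with sums of 0.687 to 1.75 in subfertile cows and 0.445 to 0.761 in fertile cows. There too subfertile cow 1 was highest, with the next subfertile cow at 0.814. Macrophage markers were lower in 1 of 6 (sums of 1.72 to 3.04 in subfertile cows and 1.41 to 3.42 in fertile cows) and T and NK cell markers higher in 1 of 6 (3.80 to 5.65 in subfertile cows and 4.25 to 5.41 in fertile cows). B and plasma cell markers were higher in 1 of 3 (1.91 to 35.8 in subfertile cows and 2.99 to 10.52 in fertile cows) and erythroid markers in 1 of 4 (0.396 to 2.69 in subfertile cows and 0.277 to 0.797 in fertile cows), with subfertile cow 5 at 2.69 and the next subfertile cow at 0.971. Under the day block a call was left in the epithelial and the B and plasma cell lists only, with 1 gene higher in each. The 1 adipocyte marker tested was not called, and VWF, MYL1, ALAS2, ADIPOQ and CIDEC were well above background on no array.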

How the data were processed

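Total RNA from 11 biopsies was labelled with Cy3 and hybridised to Agilent arrays, per the labels' protocols, and spot intensity was read by Feature Extraction (Agilent, 10.5.1.1), as the submitters' processing notes state. The deposited scanner files hold a processed intensity for each of 45220 spots, with build Btau_3.1 per the file headers. A deposited value table holds log2 values which, set against the scanner files, are log2 processed signals scaled and centred by probe, with column medians between -0.08 and 0.09; its agreement was lower for fertile cow 1 (75.3% of probes within 0.05) than for the other arrays (97.3%).

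Control spots and spots flagged as outliers were left out, log2 processed signal was taken, the 75th percentile of the remaining non-control spots was subtracted on each array, and spots of a probe were averaged. No spot was flagged as saturated on any array. The percentile was computed in 2 ways: over all non-control spots first, and then without the outlier-flagged spots, after the counts of the first were seen, to match an earlier description of this processing. Both are reported.

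Gene names are those of the scanner files without fertile cow 6, whose name column carries a gene entry in place of its heading, joined by probe. Of the 203 members 164 matched a RefSeq accession of ARS-UCD2.0, 35 a current symbol and 4 an older symbol, which were used for current names only. The main test was limma (3.58.1, R 4.3.3) with group as the sole term and Benjamini-Hochberg adjustment over 31877 probes, and the fit was tested on simulated data. Slide and scan day entered as random blocks by duplicateCorrelation (consensus correlation 0.447 and 0.315). Other settings were quantile normalization, median centring, removal of the brightness trend (natural spline with 5 degrees of freedom) and normexp with an offset of 50. The rest were the authors' table, other filters, cow number as a fixed term, trended robust variance, array weights and leaving out each cow.

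The members, gene lists and tests were chosen with earlier results of these data known. Named genes were, per complex and direction, the 3 tested genes with the smallest p on their brightest probe, SDHA to SDHD, the tissue isoforms of complex IV and NDUFA4L2 with their partners, genes with calls in opposite directions, and in each pathway list the 2 genes with the smallest p, given where they passed, and CYC1. COX7B2 and COX8C matched no probe name. Reverse complements were compared over 30 bases. The number of arrays limits the precision.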

Additional observations from a re-analysis of the deposited data

Results flagged for a closer look

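Within a group, 6 of 86 sets of values held a cow whose distance from the nearest other cow was large against the range of the group, and chance alone gives about 1 in 20. Subfertile cow 5 accounts for 4 of them. It had the highest UQCRQ value of its group at 3.60 (the other 4 cows between 3.19 and 3.29), the highest ATP5G2 probe 1 value at 5.64 (the others between 5.46 and 5.51), the highest COX6B1 value at 5.35 (the others between 5.03 and 5.09) and the highest profile over all members at 0.14 (the others between -0.01 and 0.02). Subfertile cow 3 was highest for COX7A2L at 3.48, with the others between 3.13 and 3.21. Fertile cow 6 was lowest for SDHA at 4.39, with the others between 4.78 and 4.98. The part of slide, scan or tissue in these values was not tested.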

How the results depend on the processing

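The number of members called and its direction changed with the scaling. The counts of members higher and lower were 16 and 6 as reported, 6 and 30 with quantile normalization, 4 and 20 with median centring, 6 and 41 with the brightness trend removed, and 29 and 24 with normexp, and the median difference of the members moved to -0.13 with quantile normalization, -0.055 with median centring and -0.14 with the trend removed. The random blocks gave 4 higher and 4 lower for slide and 0 and 1 for scan day, and cow number as a fixed term gave 8 and 3. Testing only probes well above background on all 11 arrays gave 21 and 11, a trended robust variance 24 and 11, and array weights 20 and 17. Over all probes 7067 were called, against 6389 with quantile normalization, 17126 with normexp, 12179 without a filter, 3672 under the slide block and 977 under the day block. Taking the 75th percentile over all non-control spots, the version computed first, gave 7090 probes called over the array and 16 members higher and 9 lower, against 16 and 6 with the reported version. That choice between 2 versions was made after the counts were seen, and the lower count hangs on it: UQCRFS1, SDHD and NDUFS1 probes had adjusted p of 0.0505, 0.0513 and 0.0518 in the reported version. Leaving out 1 cow gave 8 to 16 higher, 3 to 10 lower, a median of 0.01 to 0.06 and 4527 to 7298 probes called. The higher count was 8 without subfertile cow 5 and 9 without subfertile cow 3, the lower count was 3 without subfertile cow 2 and 10 without fertile cow 6, and 4527 probes were called without subfertile cow 2. With the trend removed, NDUFA13 and ATP5G2 probe 1 were at -0.075 and -0.065 and not called. The causes of these changes were not tested. The deviations of cows with the same number had correlations between -0.21 and 0.22. Cows of different numbers were not compared, so this cannot decide whether the numbers pair cows.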

Other observations

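COX7C probe 3 gave values that its other probes did not share, a feature chosen after the values were seen. COX7C, a small subunit of complex IV, had 4.03, 3.93, 3.96, 2.99 and 3.44 in the subfertile cows, against a lowest of -0.02, a median of 3.15 and a highest of 3.93 in the fertile cows on this probe, and fertile cows 1 and 6 were at 0.06 and -0.02, with the other fertile cows between 3.03 and 3.93. On COX7C probe 1 the same cows were at 4.65 and 4.81, within the range of the other cows. The difference between groups on probe 3 was 1.31 (limma adjusted p = 0.233) and did not pass.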
